A study of Homo sapiens with 4 samples.

Results

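The genes described here are 7 loci that recurrent translocations in multiple myeloma activate or flank, other than the cyclins: NSD2, FGFR3, LETM1, TACC3, MAF, MAFA and MYEOV. They were chosen by gene name among the 56809 gene names of the deposited table, with earlier results of these data already known. Each name matched 1 row. Poly(A) RNA had been sequenced from NCI-H929, a human multiple myeloma cell line engineered to express the nuclease Cas9. The 2 BCL7A KO libraries came from cells transduced with a doxycycline-inducible BCL7A knockout construct, and the 2 control libraries from cells that, per the protocol, received a control construct. The sample titles call these controls wild type, and which is right is not known. All cells were selected with puromycin for 3 days and then given doxycycline at 0.5 ug/ml for 24 h. Whether the KO cells were a clone or a pool is not given in the sources used here. The labels do not say whether replicate libraries were grown as separate cultures. The p-values therefore reflect no more than the spread among these 4 libraries, which may be technical.

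In these translocations the immunoglobulin heavy chain locus on chromosome 14, highly active in plasma cells, is joined to another chromosome, and its enhancers raise genes near the breakpoint. The t(4;14) translocation, for which NCI-H929 is known, breaks 4p16.3 upstream of or within the 5′ part of NSD2. NSD2 then stays on one derivative chromosome with a heavy chain enhancer, while FGFR3 comes under heavy chain enhancers on the other. MAF and MAFA are targets of rarer translocations from chromosomes 16 and 8, and MYEOV lies beside CCND1 on 11q13, the region joined in t(11;14). The comparison asks whether both groups of libraries show the translocation subtype known for the line.

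The KO libraries held 38671744 and 40799624 counts over all genes, against 17567202 and 20153596 counts for control, and the deeper libraries were thus all KO. Levels are given as CPM, the usual count scaled to library size, here after TMM scaling. Log2 fold changes put KO over control. The verbs rose and fell are kept for genes with an adjusted p under 0.05 in edgeR's quasi-likelihood test, adjusted over all 17885 tested genes, and give the direction in KO. BCL7A itself had 46 and 44 counts in the KO libraries, against 830 and 1014 counts in the control libraries. Plasma cell markers were high in every library, with summed levels of 11423 to 11430 CPM in KO against 6272 to 6330 CPM in control. All 8 of them were higher in KO, as were 36.4% of all tested genes. The labels call the cells B lymphocytes, but 5 B cell markers summed to only 1.85 to 2.54 CPM in the KO libraries, against 369 to 378 CPM in the control libraries, where CD74 and CD79A were the most abundant. Summed levels were 13.9 to 14.1 CPM in KO against 24.5 to 24.9 CPM in control for 5 T cell markers, and 12.0 to 12.6 CPM in KO against 66.1 to 70.9 CPM in control for 5 epithelial markers. The 5 myeloid and 4 erythroid markers summed to under 5 CPM in every library. CD3D and KRT19 had no count in any library, and the highest of these markers was EPCAM, with 0 counts in KO and 51.4 and 54.4 CPM in control. The part of such markers in the results was not tested. In bulk RNA, fewer cells of a type and less RNA per cell cannot be told apart.

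Of the 7 genes, 6 passed the filter on low counts. Of those 6, 5 rose (NSD2, FGFR3, TACC3, MAF and MYEOV), 0 fell, and LETM1 did not pass the threshold. This count has to be read against the background, since 76.2% of all tested genes passed, 36.4% upward and 39.8% downward. At least 2-fold rises were less common, at 9.47% of tested genes, and 4 of the 6 were among them. TACC3 lay near this limit, at a log2 fold change of 1.04. It was under 2-fold with upper-quartile factors (0.90), a stricter filter (0.98) and thinned KO counts (0.996). The median log2 fold change was 1.25 over the 6 and -0.06 over all tested genes. The groups did not overlap for the 5 that rose, which also held for 87.4% of tested genes.

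**Figure D1:**
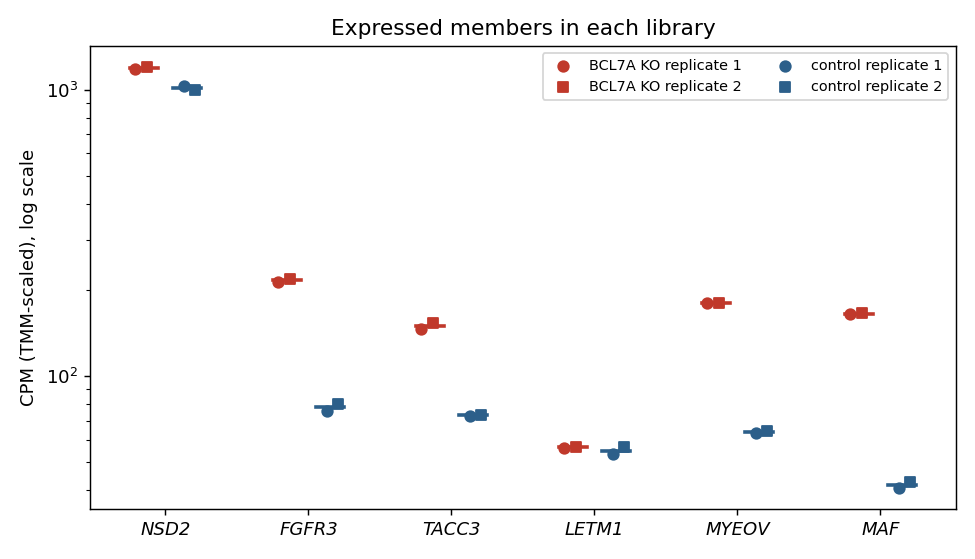
Level of each expressed member in each library, in TMM-scaled CPM on a log axis; points are libraries, short lines are group means, and MAFA, with at most 3 counts in a library, is not drawn. NSD2 sat at 1001 CPM or more in all 4 libraries, while FGFR3, TACC3, MYEOV and MAF were higher in both KO libraries.

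NSD2 encodes a histone methyltransferase that places dimethyl marks on lysine 36 of histone H3 and is the gene activated in every t(4;14) myeloma. It lies at chromosome 4, 1871424 to 1982207, plus strand (GRCh38). NSD2 had 1186 and 1203 CPM in the KO libraries, against 1032 and 1001 CPM in the control libraries. All 4 libraries were therefore high and the groups lay close together without overlap. The level averaged 1194 ± 12.6 CPM in KO and 1017 ± 21.9 CPM in control (SD, n = 2 each), a ratio of 1.18 (log2 fold change 0.23, SE 0.02, edgeR adjusted p = 4.63e-10). Of all tested genes, 36.9% had a log2 fold change at least as high. Per kb of its longest transcript, NSD2 was at 139 CPM per kb in KO and 119 CPM per kb in control, rank 414 and rank 308 among the tested genes. NSD2 was the highest of the 7 genes in both groups on this scale. A small RNA on the same strand within it, SCARNA22, had at most 15 counts in a library.

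FGFR3 encodes a receptor tyrosine kinase that binds fibroblast growth factors and is usually silent in plasma cells. It lies at chromosome 4, 1793293 to 1808872, plus strand. FGFR3 had 213 and 219 CPM in the KO libraries, against 75.7 and 80.2 CPM in the control libraries. Every library expressed it, the lowest with 1463 counts, and both KO libraries stood above both controls. FGFR3 averaged 216 ± 4.29 CPM in KO and 77.9 ± 3.15 CPM in control (SD, n = 2 each), a ratio of 2.78 (log2 fold change 1.47, SE 0.04, edgeR adjusted p = 6.14e-24). Only 3.82% of tested genes had a log2 fold change at least as high. The NSD2 level per kb was 2.88 and 2.84 times the FGFR3 level per kb in the KO libraries, against 7.06 and 6.47 times in the control libraries, so the balance of the pair differed between the groups. This difference of ratios was described, not tested.

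The start regions of NSD2 and FGFR3 are shown because these 2 genes share a breakpoint region yet differed in the size of their rise. They are RefSeq sequences of GRCh38.p14, 250 bases before to 50 after the annotated start, at chr4:1871143-1871442 and chr4:1793043-1793342, both plus strand. Capitals mark matches on either strand to the searched motifs, where neighbouring matches can run together.
NSD2: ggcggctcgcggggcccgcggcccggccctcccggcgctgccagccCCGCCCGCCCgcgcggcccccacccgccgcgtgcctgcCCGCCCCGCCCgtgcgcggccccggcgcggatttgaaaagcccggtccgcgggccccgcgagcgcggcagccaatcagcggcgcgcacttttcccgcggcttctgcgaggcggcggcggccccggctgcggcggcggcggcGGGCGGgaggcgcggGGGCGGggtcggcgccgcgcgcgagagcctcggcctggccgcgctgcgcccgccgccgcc
FGFR3: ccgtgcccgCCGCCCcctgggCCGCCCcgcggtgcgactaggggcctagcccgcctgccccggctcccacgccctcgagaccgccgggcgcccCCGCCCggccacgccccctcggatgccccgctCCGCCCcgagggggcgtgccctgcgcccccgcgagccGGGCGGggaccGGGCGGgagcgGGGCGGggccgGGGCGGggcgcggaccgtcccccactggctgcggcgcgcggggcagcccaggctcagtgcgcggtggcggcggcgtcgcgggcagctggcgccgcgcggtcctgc
The motifs were the TATA box TATAAA, the GC box GGGCGG, the cAMP response element TGACGTCA, the AP-1 site TGACTCA, the MAF recognition core TGCTGAC and the E-box CACGTG. The AP-1, cAMP response and MAF motifs share the letters TGAC. NSD2 held 6 GC boxes and FGFR3 held 8, and neither held any of the other 5 motifs. A GC box was present in 45.0% of all 35116 start regions in the table. The 2 regions were 86.7% and 86.3% G or C, against a median of 58.7% over the table.

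The other 2 genes of 4p16.3 lie before FGFR3 and between the pair. TACC3, at chromosome 4, 1721490 to 1745176, plus strand, encodes a protein that stabilises microtubules of the mitotic spindle and ends 48116 bases before FGFR3. TACC3 had 146 and 153 CPM in the KO libraries, against 72.6 and 73.5 CPM in the control libraries. The groups were well separated, with a ratio of 2.05 (log2 fold change 1.04, SE 0.04, edgeR adjusted p = 5.99e-20), and 9.09% of tested genes had a log2 fold change at least as high. LETM1, at chromosome 4, 1811479 to 1856247, minus strand, encodes a cation exchanger of the inner mitochondrial membrane and lies between FGFR3 and NSD2. LETM1 had 56.3 and 56.6 CPM in the KO libraries, against 53.5 and 56.4 CPM in the control libraries. The higher control library lay between the KO libraries, so the groups overlapped, and the difference did not pass the test (log2 fold change 0.04, SE 0.05, edgeR adjusted p = 0.466). It lies 2606 bases after FGFR3 and 15176 bases before NSD2, so the smallest difference of the 4 genes sat between the 2 translocation targets.

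TACC3 was read beside its family and the spindle genes it works with. Of 6 such genes, 4 rose and 1 fell, beside shares of 36.4% and 39.8% over all tested genes. Its relative TACC1 had 212 and 226 CPM in KO against 143 and 140 CPM in control (log2 fold change 0.63, SE 0.03). TACC2, the other relative, was the gene that fell, at a low level, with 0.370 and 0.325 CPM in KO against 1.40 and 1.53 CPM in control (log2 fold change -2.07, SE 0.42). The directions within the TACC family thus differed. TPX2, a spindle assembly factor, had 300 and 296 CPM in KO against 104 and 106 CPM in control (log2 fold change 1.50, SE 0.03). AURKA, the kinase that phosphorylates TACC3, had 123 and 119 CPM in KO against 27.0 and 29.4 CPM in control (log2 fold change 2.10, SE 0.05). CLTC, the clathrin heavy chain that holds TACC3 on the spindle, had 846 and 842 CPM in KO against 411 and 387 CPM in control (log2 fold change 1.08, SE 0.03). For LETM1, 6 relatives and mitochondrial ion transport genes gave 2 that rose and 2 that fell, to be read against the same shares. MCU, the calcium channel of the inner membrane, had 21.7 and 22.1 CPM in KO against 11.3 and 11.2 CPM in control. SLC8B1, a mitochondrial sodium-calcium exchanger, moved the other way, with 7.72 and 7.25 CPM in KO against 17.0 and 16.4 CPM in control. MICU2, a regulator of MCU, had 21.2 and 20.7 CPM in KO against 15.6 and 16.5 CPM in control (log2 fold change 0.38, SE 0.08).

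The wider 4p16.3 region was compared through 48 neighbouring genes, of which 42 were tested. Among them 15 rose, 16 fell and 11 did not pass the threshold (median log2 fold change 0.05). This split was close to that of all tested genes, of which 36.4% rose and 39.8% fell. Upward calls made up 48.4% of the calls in the region and 47.7% of all calls. Of the 22 tested genes on the telomere side of TACC3, 8 rose and 11 fell (median -0.14), and of the 20 on the centromere side of NSD2, 7 rose and 5 fell (median 0.10). The genes at the outer sides of TACC3 and NSD2 did not pass the threshold. TMEM129, which lies 131 bases before TACC3, had 28.7 and 27.6 CPM in KO against 28.2 and 28.5 CPM in control, overlapping groups (log2 fold change -0.01, SE 0.06, edgeR adjusted p = 0.886). NELFA, a subunit of the negative elongation factor that follows NSD2 by 506 bases, had 34.6 and 33.3 CPM in KO against 32.1 and 31.9 CPM in control (log2 fold change 0.08, SE 0.06, edgeR adjusted p = 0.193). By smallest p, the region was led by DOK7, ZNF141 and NOP14. DOK7, an adaptor of a muscle receptor kinase, had 1 count in the KO group and 160 in the control group. The control to KO ratio was 278, with an exact 95% counting interval of 49.1 to 11036. A gene this low in KO can pass the filter on low counts through the control libraries alone. ZNF141, a zinc finger gene, had 7.77 and 8.12 CPM in KO against 25.4 and 20.4 CPM in control, and NOP14, a ribosome biogenesis gene, had 146 and 142 CPM in KO against 105 and 106 CPM in control.

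**Figure D2:**
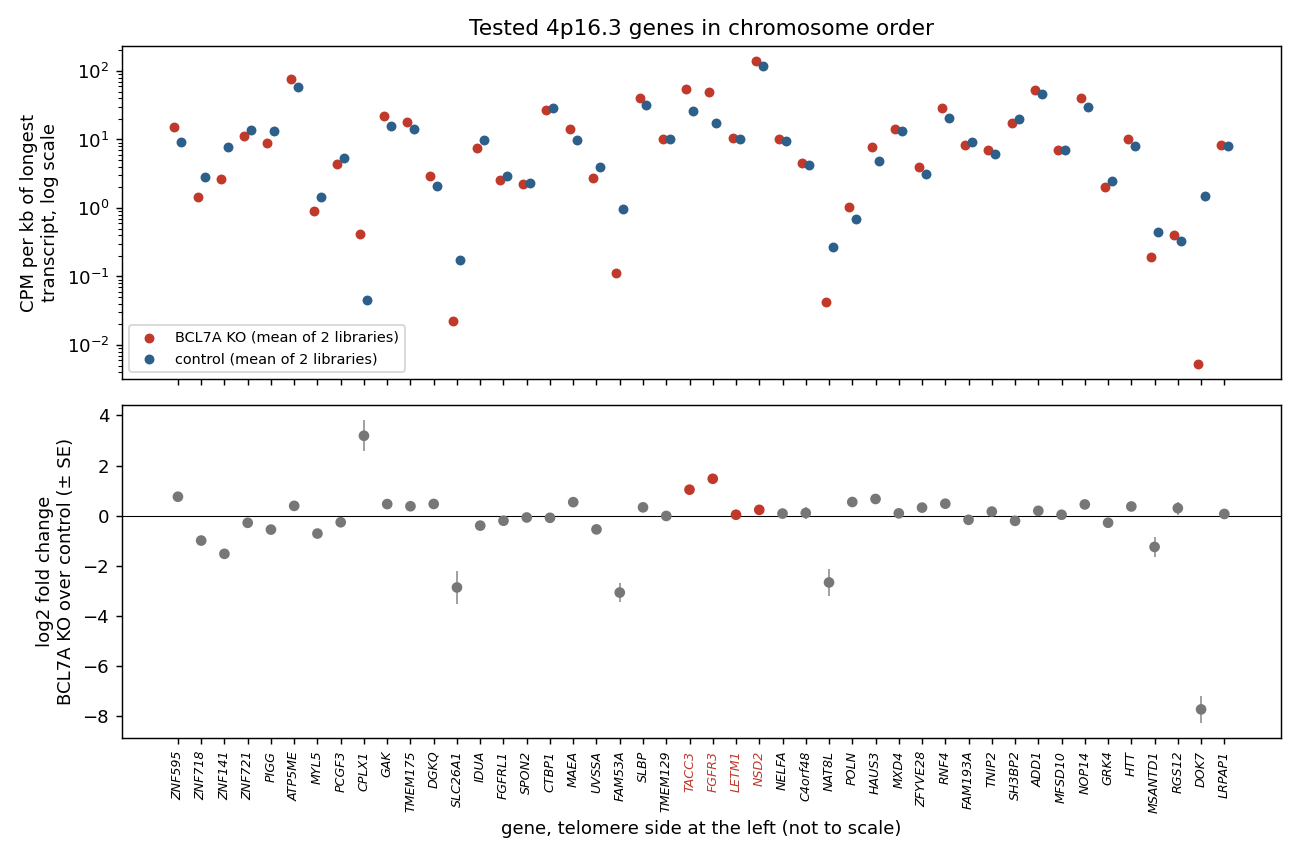
Tested genes of 4p16.3 in chromosome order, with mean CPM per kb of the longest transcript in BCL7A KO and control above (log axis, n = 2 each) and log2 fold change ± SE below; the 4 members are in red. NSD2 had the highest level per kb of the region in both groups, and FGFR3 and TACC3 had log2 fold changes of 1.47 and 1.04 while TMEM129, LETM1 and NELFA lay at -0.01, 0.04 and 0.08; the value of DOK7 rests on 1 KO count.

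Levels per kb set the members against their surroundings. The median of the 42 tested neighbours was 7.26 CPM per kb in KO and 7.05 CPM per kb in control. LETM1 was above this, at 10.3 CPM per kb in KO and 10.1 CPM per kb in control. NSD2 was 13.4 and 13.5 times LETM1 in the KO libraries, against 12.3 and 11.3 times in the control libraries, per kb. NSD2 was also 13.4 and 14.1 times NELFA per kb in the KO libraries, against 12.5 and 12.2 times in the control libraries. The step from NSD2 to the genes on either side was thus present in all 4 libraries. FGFR3 stood at 48.7 ± 0.97 CPM per kb in KO and 17.6 ± 0.71 CPM per kb in control (SD, n = 2 each), above that median in both groups.

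NSD2 was next read against the other enzymes of histone H3 lysine 36. NSD1, of the same enzyme family, had 275 and 278 CPM in KO against 152 and 148 CPM in control (log2 fold change 0.88, SE 0.03, edgeR adjusted p = 1.71e-20). NSD3, also of that family, had 136 and 141 CPM in KO against 179 and 174 CPM in control, and fell (log2 fold change -0.34, SE 0.03, edgeR adjusted p = 1.78e-10). Per kb, NSD2 exceeded NSD1 6.50 and 6.51 times in the KO libraries and 10.2 times in each control library. It exceeded NSD3 10.97 and 10.70 times in the KO libraries, against 7.26 and 7.25 times in the control libraries. In a list of 10 writers and erasers of this mark that holds NSD1 and NSD3 but not NSD2, 4 rose and 6 fell (median log2 fold change -0.35). Among all tested genes, 36.4% rose and 39.8% fell. KDM2B, a demethylase, had 22.0 and 24.6 CPM in KO against 69.1 and 70.4 CPM in control, and SETD2, the trimethylating enzyme, had 93.7 and 93.9 CPM in KO against 149 and 145 CPM in control.

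FGFR3 was the main fibroblast growth factor receptor in every library. Per kb it exceeded FGFR1 55.5 and 64.5 times in the KO libraries, against 53.9 and 41.5 times in the control libraries. It also exceeded FGFRL1, a relative without a kinase domain, 18.7 and 19.2 times in the KO libraries, against 5.80 and 6.08 times in the control libraries. FGFR1 and FGFR4 rose as FGFR3 did, though at low levels. FGFR1 had 5.38 and 4.76 CPM in KO against 1.97 and 2.70 CPM in control (log2 fold change 1.11, SE 0.19), and FGFR4 had 3.08 and 3.30 CPM in KO against 1.50 and 1.44 CPM in control (log2 fold change 1.12, SE 0.23). FGFR2 had 34 counts in the KO group and 1 in the control group, a ratio of 19.6 with an exact 95% counting interval of 3.29 to 796. FGFRL1, which lies on 4p16.3 itself, had 9.37 and 9.36 CPM in KO against 10.7 and 10.8 CPM in control and did not pass the threshold (edgeR adjusted p = 0.0994).

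The ligands of these receptors were scarce. Of 22 fibroblast growth factor genes, 12 were tested, 0 rose and 9 fell, and 7 had no count in any library. Over all tested genes, 36.4% rose and 39.8% fell. Genes this low can pass the filter on low counts through the control libraries alone. The shared direction of the 9 is therefore not read as a result. FGF13, a member of the family that stays inside the cell, was the most abundant, with 2.82 and 3.19 CPM in KO against 5.64 and 6.85 CPM in control. The 3 with the smallest p all fell. FGF2, a secreted ligand of FGFR3, had 0.228 and 0.325 CPM in KO against 2.43 and 3.51 CPM in control. FGF11 had 0.854 and 0.595 CPM in KO against 3.21 and 5.05 CPM in control. FGF14 had 1 count in the KO group and 59 in the control group. Like FGF13, FGF11 and FGF14 encode proteins that are not secreted.

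Downstream of the receptors, 22 adaptor and kinase genes split evenly, since 9 rose and 9 fell (median log2 fold change 0.08). The shares of all tested genes were 36.4% upward and 39.8% downward. NRAS, a RAS GTPase gene, had 507 and 517 CPM in KO against 223 and 225 CPM in control (log2 fold change 1.20, SE 0.03). SHC1, an adaptor, had 312 and 320 CPM in KO against 186 and 182 CPM in control, whereas the kinase gene BRAF had 73.3 and 72.6 CPM in KO against 137 CPM in each control library. Of 13 feedback and target genes of the ERK pathway, 8 rose and 3 fell, with a median of 0.76. This count has the same background of all tested genes, and a tie to FGFR3 was not tested. DUSP6, a phosphatase that switches off ERK, had 114 and 116 CPM in KO against 24.0 and 28.5 CPM in control (log2 fold change 2.12, SE 0.05). Its relatives DUSP5 and DUSP4 rose with log2 fold changes of 0.99 (SE 0.02) and 1.36 (SE 0.05). The 3 that fell were SPRY1, SPRY2 and FOS, a pair of sprouty feedback inhibitors and an immediate early factor, each under 7 CPM in every library. IL17RD and EGR1 did not pass the threshold.

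MAF encodes a basic leucine zipper factor, overexpressed where t(14;16) is present and also expressed in some myelomas without it. It lies at chromosome 16, 79585843 to 79600714, minus strand. MAF had 165 and 166 CPM in the KO libraries, against 40.8 and 42.7 CPM in the control libraries. Both groups expressed it, and the KO libraries held 3.96 times as much (log2 fold change 1.98, SE 0.04, edgeR adjusted p = 9.92e-26). Of the 7 genes this was the largest rise, and 1.61% of tested genes had a log2 fold change at least as high. Per kb, MAF stood below FGFR3 in both groups, at 25.9 ± 0.07 CPM per kb in KO and 6.54 ± 0.20 CPM per kb in control (SD, n = 2 each).

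The start region of MAF is shown because MAF changed most and its region differs in kind from those of NSD2 and FGFR3. It is the RefSeq sequence of GRCh38.p14 at chr16:79600688-79600987, minus strand, read 5′ to 3′ along the gene, with the same motifs in capitals.
MAF: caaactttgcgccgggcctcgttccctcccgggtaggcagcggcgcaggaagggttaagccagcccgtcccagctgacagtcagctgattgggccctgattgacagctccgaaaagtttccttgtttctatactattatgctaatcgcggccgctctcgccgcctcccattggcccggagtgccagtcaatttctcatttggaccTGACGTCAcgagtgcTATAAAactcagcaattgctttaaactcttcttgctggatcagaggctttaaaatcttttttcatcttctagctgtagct
It held 1 cAMP response element and 1 TATA box, found in 1.85% and 11.5% of the 35116 start regions, and no GC box, AP-1 site, MAF recognition core or E-box. It was 51.7% G or C and had 16 CG pairs, against 63 in NSD2 and 51 in FGFR3. The start region of TACC3, not printed here, was 72.0% G or C with 30 CG pairs and held no match to any of the motifs. A match is a description of letters, not a bound site. A link between the letters of these regions and the size of a rise was not tested.

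Among the other MAF genes the directions were mixed. MAFA, at chromosome 8, 143419182 to 143430406, minus strand, is the target of a rare translocation and had 1 count in each KO library, against 0 and 3 counts in the control libraries. Each group was at or under 3 counts, a limit of 0.0416 CPM in KO and 0.0723 CPM in control, so no fold is given. Of the 5 family members besides MAF and MAFA, MAFK rose (log2 fold change 0.40, SE 0.10), MAFF fell (log2 fold change -1.77, SE 0.15), and the other 3, MAFG and NRL among them, did not pass the threshold. MAFG, a small MAF protein without an activation domain, had 57.1 and 59.8 CPM in KO against 61.0 and 59.0 CPM in control, and NRL, known from rod photoreceptors, had 0.911 and 0.812 CPM in KO against 1.29 and 1.31 CPM in control. Per kb, MAF was 2.28 and 2.19 times MAFG in the KO libraries, against 0.529 and 0.571 times in the control libraries, so the order of these 2 genes was opposite in the groups.

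**Figure D3:**
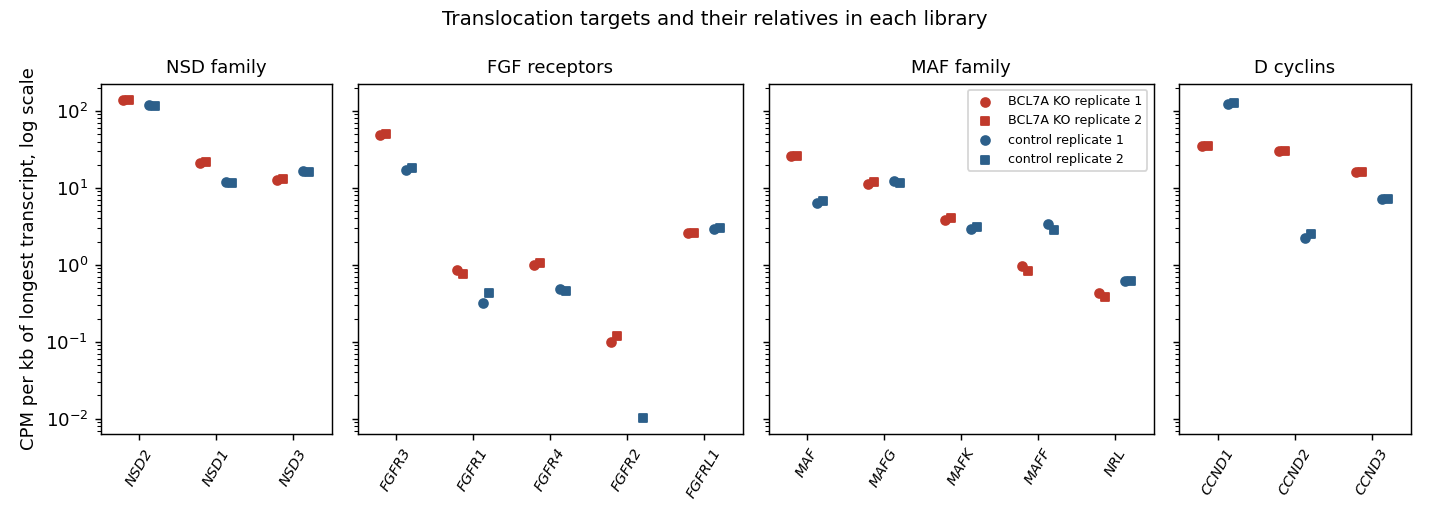
Level per kb of the longest transcript (log axis) of the members NSD2, FGFR3 and MAF beside their relatives, and of the D cyclins, in each of the 4 libraries; FGFR2, with 0 counts in control replicate 1, has no point there. NSD2 and FGFR3 were the highest of their families in every library, MAF exceeded MAFG only in KO, and CCND1 and CCND2 differed in opposite directions.

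Around MAF on 16q23, 5 of 8 neighbours were tested and all 5 rose, with a median log2 fold change of 1.29. WWOX, the gene in which t(14;16) breakpoints fall, ends 373175 bases before MAF and had 5.75 and 5.60 CPM in KO against 2.48 and 1.94 CPM in control. CENPN, a centromere protein gene, had 35.5 and 35.0 CPM in KO against 13.3 and 13.8 CPM in control, and CMC2, a mitochondrial assembly gene, had 21.6 and 22.8 CPM in KO against 8.90 and 10.9 CPM in control. ATMIN changed least, with a log2 fold change of 0.17 (SE 0.04). All 5 tested genes of this list were thus higher in KO, as were MAF and 36.4% of all tested genes. Genes of the region outside the list were not read. Around MAFA on 8q24.3 the listed genes went the other way, with 0 of 11 neighbours higher and 9 lower (median -0.83). For comparison, 39.8% of all tested genes fell. ZNF623 had 19.5 and 17.6 CPM in KO against 78.3 and 76.2 CPM in control, and EEF1D, a translation elongation factor subunit, had 101 and 99.3 CPM in KO against 179 and 178 CPM in control. TIGD5 and NAPRT, an enzyme of NAD synthesis, were 17.0 and 26.9 times higher in the control libraries.

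Genes that accompany MAF in myeloma were mostly higher in KO. Of 8 such genes, 6 rose, 0 fell and 2 did not pass the threshold (median log2 fold change 1.56, lowest -1.10). As a background, 36.4% of all tested genes rose and 39.8% fell. CCND2, the D cyclin induced by MAF, had 198 and 193 CPM in KO against 14.5 and 16.1 CPM in control (log2 fold change 3.67, SE 0.05). ITGB7, an integrin subunit, had 5132 and 5148 CPM in KO against 1946 and 1973 CPM in control, and DEPTOR, an inhibitor of mTOR, had 148 and 151 CPM in KO against 35.8 and 36.7 CPM in control. NUAK1, CCR1 and SMARCA1 also rose, with log2 fold changes of 3.03 (SE 0.09), 1.11 (SE 0.03) and 1.73 (SE 0.43). CX3CR1, at most 0.631 CPM, and RND3, at most 5.63 CPM, did not pass.

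MYEOV is a gene of uncertain function named for its overexpression in myeloma with t(11;14). It lies at chromosome 11, 69294138 to 69367726, plus strand, 273360 bases before CCND1. MYEOV had 181 CPM in each KO library, against 63.2 and 64.6 CPM in the control libraries. The KO libraries were closely alike and stood above both controls (ratio 2.83, log2 fold change 1.50, SE 0.04, edgeR adjusted p = 4.59e-24), and 3.65% of tested genes had a log2 fold change at least as high. A processed pseudogene on the opposite strand, IFITM9P, lies within MYEOV and had 0 counts in the KO libraries and 75 and 117 counts in the control libraries. How reads were shared between strands is not given in the sources used here.

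CCND1, the cyclin D1 gene that is the main target of t(11;14), went against its neighbour MYEOV. CCND1 had 150 and 152 CPM in KO against 534 and 542 CPM in control, with control 3.56 times higher (log2 fold change -1.83, SE 0.03, edgeR adjusted p = 1.09e-28). Per kb, MYEOV was 2.10 and 2.08 times CCND1 in the KO libraries, against 0.206 and 0.208 times in the control libraries. The pair thus had opposite orders in the groups. Of the 14 listed 11q13 neighbours, 8 were tested, 3 rose and 4 fell (median -0.12). Across all tested genes the shares were 36.4% and 39.8%. PPFIA1, a scaffold protein gene, had 79.1 and 83.1 CPM in KO against 112 CPM in each control library, MRPL21, a mitochondrial ribosomal protein gene, had 31.2 and 32.8 CPM in KO against 23.8 and 21.8 CPM in control, and FGF3, FGF4 and FGF19 had no count in any library.

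Other heavy chain translocation targets were set beside the 7. CCND2 and CCND3 rose, CCND1 fell, and the log2 fold change of CCND3 was 1.17 (SE 0.07). In the KO libraries CCND2 was 0.874 and 0.842 times CCND1 per kb, against 0.0180 and 0.0198 times in the control libraries. MYC, at 497 to 560 CPM, and IRF4, at 1475 to 1733 CPM, had log2 fold changes of -0.16 (SE 0.02) and 0.22 (SE 0.02), close in size to that of NSD2. Of 4 genes that go with the t(4;14) subtype, 3 rose and 1 fell, where 36.4% and 39.8% of all tested genes did so. CDH2, which encodes N-cadherin, had 40.3 and 41.1 CPM in KO against 13.1 and 12.3 CPM in control, and DSG2, a desmosomal cadherin, had 56.0 and 54.1 CPM in KO against 28.3 and 29.1 CPM in control.

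Among the genes of the CCND1 and t(11;14) subtype, VPREB3 was not tested. The other 4 fell, as did 39.8% of all tested genes. Besides CCND1, the 4 were CD79A, a B cell receptor subunit, PAX5, a B cell transcription factor, and MS4A1, which encodes CD20. CD79A had 0.114 and 0.217 CPM in KO against 82.9 and 86.2 CPM in control, and PAX5 had 0.285 and 0.298 CPM in KO against 22.2 and 22.3 CPM in control. MS4A1 stayed low, with 5 and 0 counts in KO, or 0.142 CPM in the higher, against 1.19 and 0.766 CPM in control. These 3 are also B cell markers, whose summed level differed in the same direction, and their part in the result was not tested. At such low KO levels they can pass the filter on low counts through the control libraries alone. The shared direction of these 3 is therefore not read as a result. Of 4 genes of the hyperdiploid subtype, DKK1, a WNT inhibitor, rose at a low level, with 0.683 and 0.595 CPM in KO against 0.103 and 0.270 CPM in control. TNFSF10, the TRAIL ligand, had 10.1 and 11.1 CPM in KO against 8.23 and 9.69 CPM in control and did not pass the threshold.

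Across the 7 genes the order of levels per kb differed between the groups. In KO it was NSD2, MYEOV, TACC3, FGFR3, MAF, LETM1 and MAFA, at 139, 73.3, 53.9, 48.7, 25.9, 10.3 and 0.0118 CPM per kb. In control it was NSD2, TACC3, MYEOV, FGFR3, LETM1, MAF and MAFA, at 119, 26.3, 25.9, 17.6, 10.1, 6.54 and 0.0288 CPM per kb. TACC3 and MYEOV did not differ beyond their spread in control (26.3 ± 0.23 and 25.9 ± 0.40 CPM per kb, SD, n = 2). MAF and LETM1 changed places, since MAF lay above LETM1 in KO and below it in control. The place of TACC3 depended on the length used: per kb of merged exons it lay below MYEOV and FGFR3 in both groups, and below MAF in KO.

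**Figure D4:**
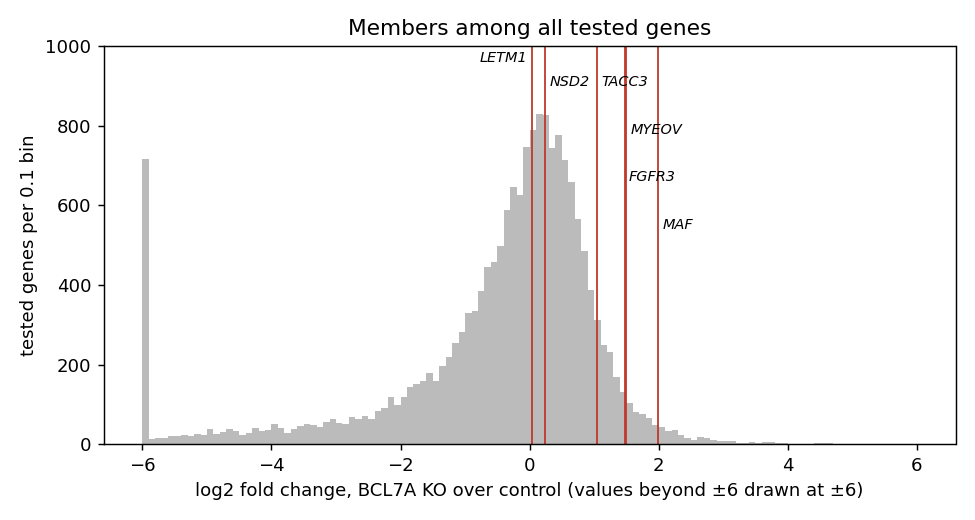
Histogram of the log2 fold change, BCL7A KO over control, of all 17885 tested genes in bins of 0.1, with the 6 tested members as red lines; values beyond 6 in either direction are drawn at the edge. NSD2 (0.23) and LETM1 (0.04) lie near the peak, and TACC3 (1.04), FGFR3 (1.47), MYEOV (1.50) and MAF (1.98) on its right shoulder.

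Genes with patterns most like those of 5 members were taken by the smallest root mean square distance of log2 CPM, centred on each gene's mean, over the 4 libraries, over the 9537 genes that averaged 10 CPM or more. For NSD2 they included PURA and GPCPD1, at distances of 0.0043 and 0.0059. For FGFR3 they were CRIM1, GRPEL2 and S100A11 (0.013 to 0.017), and for MAF they were ADA, TEX19 and LMNA (0.011 to 0.013). For TACC3 they were MTREX, CDC123 and PHAX (0.0043 to 0.0094), and for LETM1 NOL12, LANCL1 and ZDHHC4 (0.0039 to 0.0082). None of these genes was a member, and with 4 libraries in 2 groups the measure mostly reads the difference between the groups.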

How the data were processed

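The authors deposited estimated counts for each gene, for which the submitters' processing notes name Salmon 0.12 and GRCh38, while the annotation and the strand setting were not stated there or in the labels. All 56809 gene names matched GENCODE 29, the source of coordinates and transcript lengths, and 92 ERCC spike-in rows were left out. Every value was already whole, so no rounding was needed. Replicates differed by more than counting noise, with chi-square over its degrees of freedom at 1.79 in KO and 2.43 in control. Genes were filtered with filterByExpr, scaled with TMM factors (0.909 and 0.906 in KO, 1.10 in both controls) and tested with edgeR 4.0.16 (robust quasi-likelihood, no covariates, Benjamini-Hochberg). The SE is the log2 fold change over the square root of F. Intervals and limits of counts cover counting error only. Genes were compared with each other per kb of longest transcript. The fit was checked on simulated data with known changes in a small share of genes. That check does not cover the scaling where most genes are called, which is the case here. Members, gene lists and tests were chosen with earlier results of these data known. Named genes are the members, adjacent genes, up to 3 of each list by smallest p, those over 10-fold apart with at least 5 CPM, and whole small lists; other list genes were named after their values were seen. Some genes that this rule names are not reported here, though list counts, medians and sums include them. The alternatives were other scalings, filters, tools (DESeq2 1.42.0, limma-voom 3.58.1) and a replicate block, no robust shrinkage, a threshold of 0.01, thinned KO counts, merged exon lengths and each library left out in turn.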

Additional observations from a re-analysis of the deposited data

How the results depend on the processing

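NSD2, FGFR3, TACC3, MAF and MYEOV kept their direction and call under all 14 alternatives, with log2 fold changes of 0.10 to 0.32, 1.34 to 1.55, 0.90 to 1.12, 1.85 to 2.07 and 1.37 to 1.58. Upper-quartile factors moved the median of all tested genes by -0.13 against TMM, so small differences such as that of NSD2 are relative to the scaling. The libraries left out in turn gave 12363 to 13102 called genes, 28 to 31 called 4p16.3 neighbours and the same 5 called members. LETM1 passed the threshold only with no filter (log2 fold change 0.12, adjusted p = 0.0222), and its values ranged from -0.10 to 0.12, so no direction is given for it. FGFRL1 passed downward with upper-quartile factors (-0.33) and the stricter filter (-0.26), TMEM129 with upper-quartile factors (-0.14), and NELFA upward with no filter (0.17). MAFA, with 0 to 3 counts in a library, was not among the 6 members called with no filter, which were LETM1 and the 5 above. The replicate numbers showed no pairing (r = -0.0003 across 16774 genes), and with the number as a block 13287 genes were called, against 13629 without it, with all 5 member calls kept. With merged exon lengths NSD2 was at 60.4 CPM per kb in KO and 51.4 CPM per kb in control, still the highest of the 7. TACC3 was then at 22.96 CPM per kb in KO, below MYEOV (48.1), FGFR3 (44.6) and MAF (23.71). In control it was at 11.2 CPM per kb, below MYEOV (17.0) and FGFR3 (16.1).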
